A study of Mus musculus with 7 samples.

Results

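Amino acid transporters of 7 solute carrier families, SLC1, SLC3, SLC6, SLC7, SLC36, SLC38 and SLC43, were described in whole liver of C57BL/6 mice with high (H-TBA) or low (L-TBA) total bile acids. The members were the rows of the raw count table whose mouse symbol carries the stem of any of these families, apart from 3 symbols of SLC1 and SLC7 that are not analysed here. This gave 63 genes of the 37620 identifiers in the table. All mice had eaten a Western diet for 30 weeks, and the labels give no other treatment and no age. Flash-frozen livers gave total RNA for 4 H-TBA and 3 L-TBA sequencing libraries. The labels do not state whether a library stands for 1 mouse or several, so p-values measure the spread between libraries.

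Amino acids are polar and cross membranes only through carriers. SLC7 light chains work as exchangers once bound to an SLC3 heavy chain, whereas the cationic branch of SLC7 carries arginine, lysine and ornithine alone. SLC38 carriers use the sodium gradient to load hepatocytes with glutamine, alanine and other neutral amino acids, SLC6 holds carriers of taurine, betaine, creatine, glycine and GABA, and SLC43 proteins let large neutral amino acids pass down their gradient. The liver takes up amino acids from portal blood for protein synthesis, gluconeogenesis and the urea cycle, and in mice it conjugates bile acids mainly with taurine.

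Library totals lay between 9996990 and 11488951 counts in H-TBA and between 10973114 and 12152613 in L-TBA. Levels are CPM, the counts of a gene relative to a library total scaled by the trimmed mean of M-values (TMM). Each fold change sets H-TBA over L-TBA in the quasi-likelihood test of edgeR, with p adjusted over all 15249 genes tested and a threshold of 0.05. On the first principal component of all tested genes H-TBA 1 lay at -8.18, H-TBA 2 to 4 between -39.5 and -30.7, and the L-TBA libraries between 32.8 and 40.1. The liver label was met by the 6 hepatocyte markers, among them albumin, at 49358 to 55904 CPM in sum in H-TBA and 53317 to 61877 CPM in L-TBA. Of these 6, Tat was higher (2.67-fold, adjusted p = 0.000282) and Ttr lower (0.733-fold, adjusted p = 0.0113, a call lost without L-TBA 1). Markers of other cells moved with the groups. All 8 bile duct markers were higher (952 to 1840 CPM in sum in H-TBA, 456 to 719 CPM in L-TBA). All 5 of the sinusoidal endothelium were lower (86.0 to 93.5 CPM in H-TBA, 142 to 166 CPM in L-TBA). This became 4 lower without H-TBA 3, H-TBA 4, L-TBA 1 or L-TBA 3. Of 6 macrophage markers 3 were lower and 0 higher (147 to 231 CPM in H-TBA, 346 to 572 CPM in L-TBA). Without L-TBA 2, 4 macrophage markers were lower, and without L-TBA 3, 2 were. Of 6 pericentral hepatocyte markers 3 were lower (4 without H-TBA 1) and 0 higher, and of 6 periportal markers 5 were higher and 0 lower. Vascular endothelium had 2 higher and 0 lower of 5 markers (64.3 to 99.6 CPM in H-TBA, 49.7 to 65.2 CPM in L-TBA; 4 higher without H-TBA 1), and stellate cells had 2 higher and 1 lower of 6 (495 to 583 CPM in H-TBA, 393 to 664 CPM in L-TBA; 1 higher without L-TBA 2 or L-TBA 3, and 2 lower without H-TBA 1). None of 5 T, NK and B cell markers passed (from 6.54 CPM in H-TBA and from 8.81 CPM in L-TBA, with a highest sum of 24.1 CPM in L-TBA; 1 lower without L-TBA 1). Of 2 tested neutrophil markers 1 was lower (1.77 to 3.03 CPM in sum over the list in H-TBA, 3.5 to 4.41 CPM in L-TBA), or 2 without H-TBA 2 and 0 without H-TBA 3, H-TBA 4, L-TBA 2 or L-TBA 3. None of 3 erythroid markers passed (208 to 399 CPM in H-TBA, 350 to 450 CPM in L-TBA), but 2 were lower without H-TBA 1. No marker was at 0 in all libraries. The part of these shifts in the results on transporters was not tested. In whole tissue, fewer cells of a type and less RNA per cell cannot be told apart.

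Enough counts for a test were found for 32 of the 63 members. In H-TBA livers 8 of them rose, 5 fell and 19 did not pass. The called share was 40.6% of the tested members, beside 23.9% of all tested genes, and by direction 13.1% of all tested genes were higher and 10.7% lower. The median log2 fold change was 0.20 over the tested members and 0.00 over all tested genes. For the members it was 0.10 without H-TBA 2, 0.11 without L-TBA 3, 0.11 with a stricter filter (29 members) and 0.35 with library totals. The H-TBA and L-TBA values were free of overlap in 13 of the 32 members (40.6%), beside 33.5% of all tested genes. Without H-TBA 1, the library nearest to L-TBA, 9 members were higher and 5 lower. Beside these stood 2429 higher and 2123 lower of 15184 tested genes, from 2003 and 1635 of 15249 with all libraries. Scaling by library totals, which moved the median log2 fold change of all genes to 0.16, gave 12 higher and 3 lower members. Higher members then made up 80.0% of the member calls in place of 61.5%. All tested genes shifted likewise, to 3113 higher and 832 lower from 2003 and 1635 (55.1% higher) with TMM. Without L-TBA 3 the member counts were 6 higher and 3 lower, beside 1511 higher and 1139 lower of 15601 tested genes.

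By family, all 3 SLC43 genes were higher (median log2 fold change 0.70). SLC7 had 3 higher and 1 lower of 9 tested, with a median of 0.51 (that of Slc7a5, 0.32 without L-TBA 1). SLC6 had 2 higher and 2 lower of 7 tested. Its median of 0.31 was that of Slc6a18, a gene at 0.449 to 1.56 CPM that did not pass (adjusted p = 0.679). The SLC6 median dropped to 0.06, 0.07 and 0.11 with H-TBA 2, L-TBA 2 or L-TBA 3 left out. It was 0.11 with a stricter filter. SLC36 had 1 lower of 2, SLC38 1 lower of 8, and neither the 2 SLC3 genes nor the only tested SLC1 gene passed. The SLC38 median of -0.01 was 0.14 when libraries were scaled by their totals, and 0.01, 0.02 and 0.04 with H-TBA 2, H-TBA 3 or L-TBA 1 left out.

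**Figure D1:**
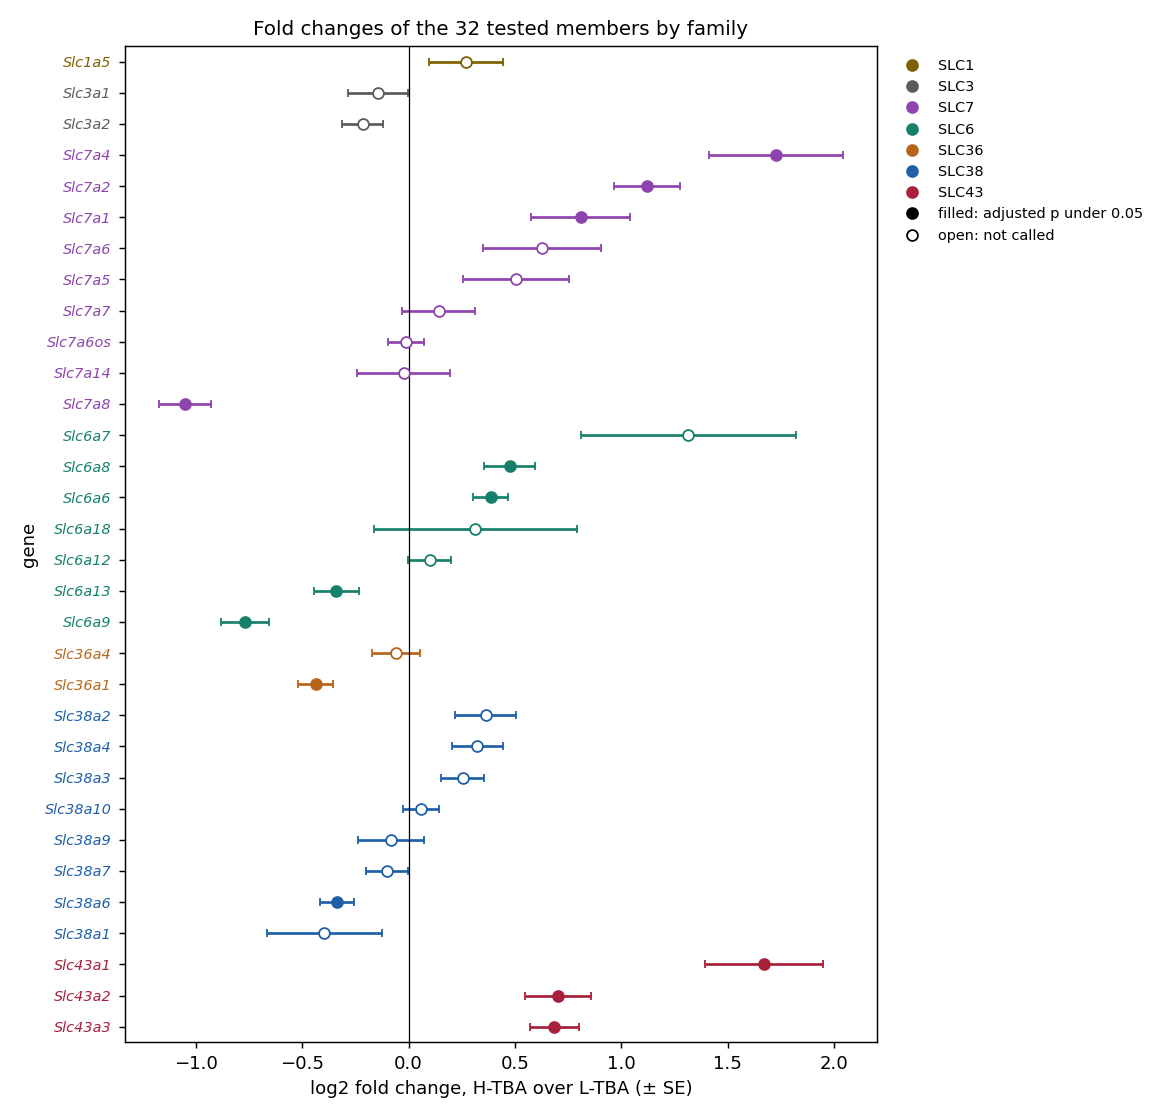
Log2 fold change, H-TBA over L-TBA, with its standard error for each of the 32 tested members (rows), coloured by family and sorted by size within it. Filled points passed the threshold of 0.05 on the adjusted p. All 3 SLC43 genes lie to the right at 0.69 to 1.67, and Slc7a8 lies farthest to the left at -1.05.

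Promoter windows from RefSeq on GRCm38.p6 (250 bases before to 50 after a gene's start) were found for 8 of the 13 called members, with 14 windows in all. They are shown for the only called members whose window held an E-box, CACGTG, the core of sites bound by basic helix-loop-helix factors such as those of the lysosomal gene network and the clock. The sequence is palindromic, so the strands give the same sites. It was in 2 of the 14 windows, beside 7.15% of the 32851 windows in the table and 4 of the 38 windows of tested members. TGATGNAA, a composite site of the kind found in amino acid response elements, was searched on either strand. It was in 0 of the 14 windows, beside 3.97% of all windows and 2 of the 38 windows of tested members. The called members without a window, Slc7a2, Slc7a4, Slc6a6, Slc6a8 and Slc43a3, were all higher in H-TBA and could not be searched for either site. A match is only a match of letters. Capitals mark CACGTG, which begins 64 bases before the start of Slc43a1 and 31 and 3 bases before the start of Slc36a1.
Slc43a1, GRCm38.p6 chr2:84840073-84840372, plus strand: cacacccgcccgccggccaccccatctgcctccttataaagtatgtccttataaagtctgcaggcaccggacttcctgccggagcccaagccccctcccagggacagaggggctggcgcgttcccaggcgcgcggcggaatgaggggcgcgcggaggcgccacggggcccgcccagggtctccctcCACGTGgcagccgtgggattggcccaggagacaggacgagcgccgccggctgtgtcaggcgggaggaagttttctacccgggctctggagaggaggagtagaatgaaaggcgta
Slc36a1, GRCm38.p6 chr11:55204090-55204389, plus strand: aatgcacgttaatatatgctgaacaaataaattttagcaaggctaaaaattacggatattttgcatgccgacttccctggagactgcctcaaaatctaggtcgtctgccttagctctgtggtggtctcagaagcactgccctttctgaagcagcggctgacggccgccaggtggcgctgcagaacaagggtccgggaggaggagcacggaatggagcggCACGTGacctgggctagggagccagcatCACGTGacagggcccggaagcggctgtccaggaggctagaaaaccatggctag

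Of the 5 genes of the cationic branch 3 were higher in H-TBA livers, 1 did not pass and 1, Slc7a3, had too few counts to test (11 in H-TBA and 9 in L-TBA). Of the 3 calls, that of Slc7a1 depended on the libraries kept. Slc7a2 (ENSMUSG00000031596) encodes CAT-2, the low-affinity arginine, lysine and ornithine carrier typical of hepatocytes. It stood at 1116, 1107, 787 and 1025 CPM in H-TBA, against 427, 403 and 559 CPM in L-TBA. Every H-TBA library was above every L-TBA library, with the nearest pair at 787 CPM in H-TBA 3 and 559 CPM in L-TBA 3. The means were 1009 ± 153 CPM in H-TBA (SD, n = 4) and 463 ± 83.9 CPM in L-TBA (SD, n = 3), a log2 fold change of 1.12 ± 0.16 (SE) or 2.18-fold (adjusted p = 0.000665). Slc7a1 (ENSMUSG00000041313) encodes CAT-1, the high-affinity carrier of most other tissues, which the liver has little of. It was at 4.48, 8.01, 8.54 and 6.80 CPM in H-TBA and 4.49, 3.32 and 4.11 CPM in L-TBA. H-TBA 1 lay within the L-TBA range while the other 3 H-TBA libraries lay above it. On the log2 scale the fold change was 0.81 ± 0.23 (adjusted p = 0.0272). That call was lost without H-TBA 2, 3 or 4 (adjusted p = 0.0716, 0.0708 and 0.0584) and without L-TBA 1, 2 or 3 (0.05, not under the threshold, 0.101 and 0.0656).

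Slc7a4 (ENSMUSG00000022756), which is related to the cationic carriers by sequence but for which no amino acid transport is established, had 3.27, 6.25, 8.62 and 5.74 CPM in H-TBA and 1.81, 1.97 and 1.60 CPM in L-TBA. The groups did not overlap, and H-TBA 1 was again the H-TBA library nearest to L-TBA. Its log2 fold change of 1.73 ± 0.31 was the largest of the 13 called members (adjusted p = 0.00278). Slc7a14, a lysosomal relative, was at 2.15 to 3.17 CPM in H-TBA and 2.60 to 3.11 CPM in L-TBA and did not pass (log2 fold change -0.02 ± 0.22, adjusted p = 0.954). Its sign turned with H-TBA 2, H-TBA 4 or L-TBA 1 left out (0.07, 0.00 and 0.07) and with library totals (0.13). Per kilobase of exon in the GENCODE models, the level of Slc7a2 was 110 CPM in H-TBA and 50.7 CPM in L-TBA, and that of Slc7a1 was 0.603 CPM in H-TBA and 0.345 CPM in L-TBA.

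The heteromeric exchangers did not move together. Slc7a8 (ENSMUSG00000022180) encodes LAT2, a light chain that exchanges neutral amino acids of all sizes. It had 8.59, 6.74, 7.32 and 7.85 CPM in H-TBA and 16.6, 15.3 and 15.5 CPM in L-TBA. All H-TBA libraries lay far below all L-TBA libraries, with little spread inside either group. The log2 fold change was -1.05 ± 0.12, a fold of 0.482, with an adjusted p of 0.000303. Slc7a5 (ENSMUSG00000040010), the LAT1 light chain of dividing cells, had 2.71, 3.13, 3.90 and 2.83 CPM in H-TBA and 1.64, 2.24 and 2.80 CPM in L-TBA. L-TBA 3 lay among the H-TBA libraries. Its log2 fold change of 0.51 ± 0.25 did not pass (adjusted p = 0.168). The y+L light chains, which give out cationic in exchange for neutral amino acids, did not pass either. Slc7a7 (ENSMUSG00000000958) had 8.03, 9.09, 9.92 and 7.69 CPM in H-TBA and 8.55, 8.97 and 6.01 CPM in L-TBA, and the groups overlapped (log2 fold change 0.14 ± 0.17, adjusted p = 0.595, or -0.02 with L-TBA 3 left out). For Slc7a6 the difference was 0.63 ± 0.28 on the log2 scale (adjusted p = 0.124). It passed without H-TBA 1 (adjusted p = 0.0367; the alternatives spanned 0.0367 to 0.288, the replicate block aside).

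The heavy chains bring light chains to the membrane. Slc3a2 (ENSMUSG00000010095), the 4F2 heavy chain that LAT1, LAT2 and the y+L light chains need, had 47.3, 43.4, 54.2 and 53.2 CPM in H-TBA and 57.9, 61.8 and 52.7 CPM in L-TBA. The groups overlapped, and the log2 fold change was -0.21 ± 0.10 (adjusted p = 0.132). Slc3a1 (ENSMUSG00000024131), the rBAT heavy chain of the kidney cystine carrier, had 36.9, 45.2, 39.8 and 36.7 CPM in H-TBA and 36.7, 55.9 and 38.5 CPM in L-TBA. The spread came mainly from L-TBA 2, and the log2 fold change was -0.14 ± 0.14 (adjusted p = 0.508), or 0.07 without L-TBA 2 and 0.01 with library totals. Slc7a9, the light chain that pairs with Slc3a1 in kidney, had 2 counts over the 7 libraries. Per kilobase of exon Slc3a2 was at 14.0 CPM in H-TBA and 16.3 CPM in L-TBA, above Slc7a8 (1.52 CPM in H-TBA, 3.16 CPM in L-TBA), Slc7a7 (2.62 CPM in H-TBA, 2.37 CPM in L-TBA) and Slc7a5 (0.848 CPM in H-TBA, 0.601 CPM in L-TBA).

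**Figure D2:**
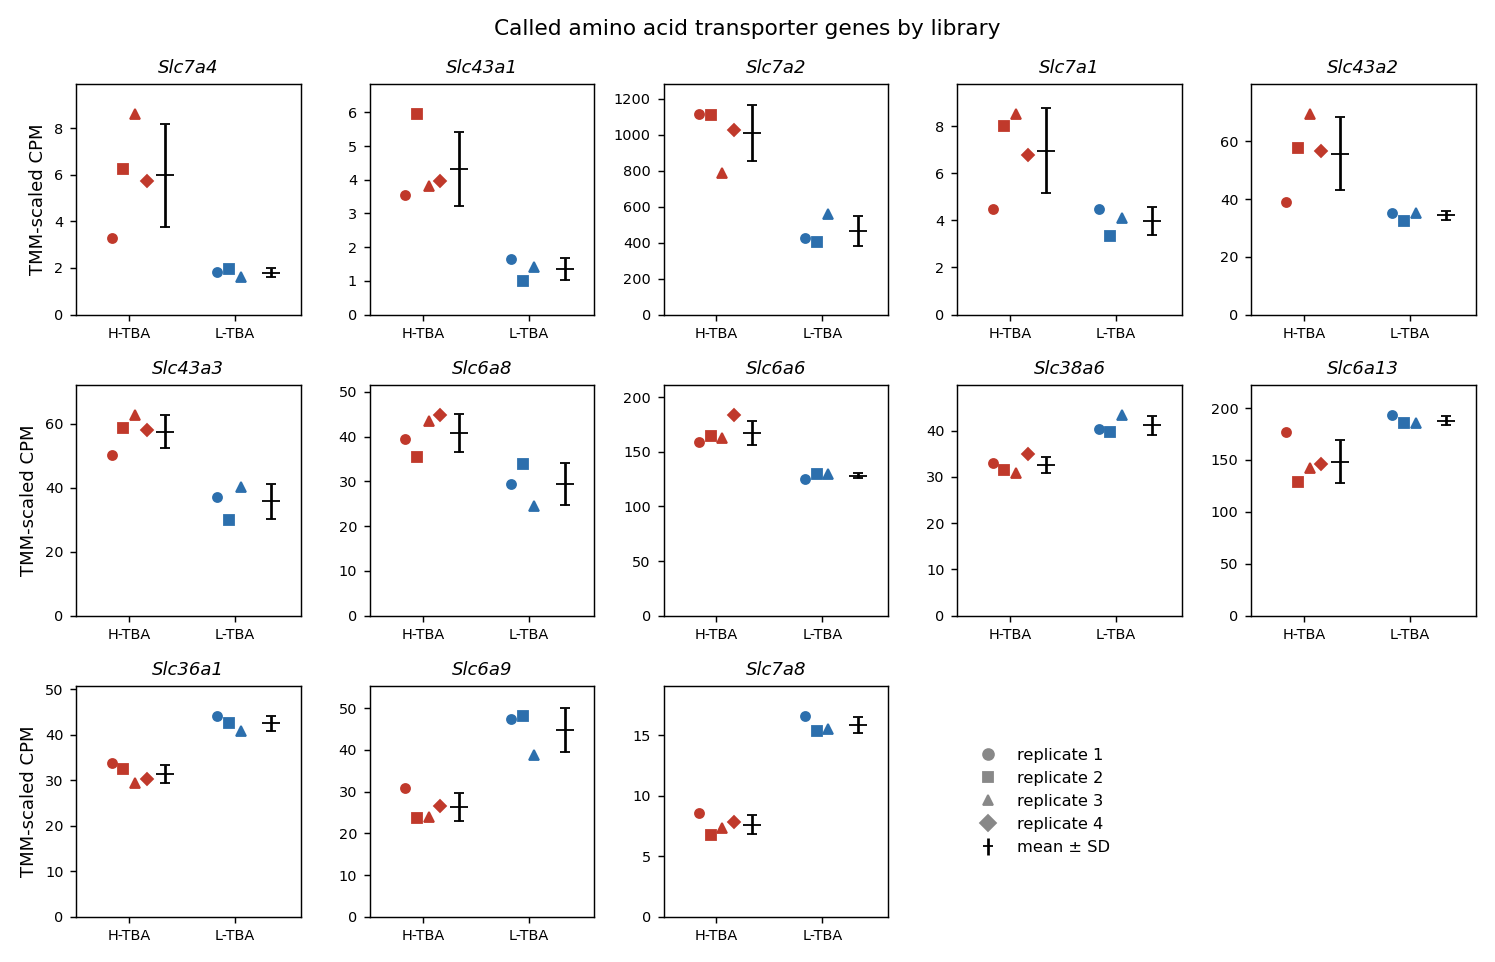
TMM-scaled CPM (vertical axis, from 0) of the 13 called members in each library, with H-TBA left of L-TBA in every panel and symbols for replicate numbers; black bars are mean ± SD. Panels run from the largest rise to the largest fall, and Slc7a1 is the panel where H-TBA 1 (4.48 CPM) lies inside the L-TBA range.

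All 3 SLC43 genes were higher in H-TBA livers. Slc43a1 (ENSMUSG00000027075) encodes LAT3, a facilitator of branched-chain amino acids, phenylalanine and methionine. It had 3.55, 5.96, 3.82 and 3.96 CPM in H-TBA and 1.64, 0.987 and 1.40 CPM in L-TBA. The lowest H-TBA library exceeded the highest L-TBA library more than the L-TBA libraries differed among themselves. The log2 fold change was 1.67 ± 0.28, or 3.18-fold (adjusted p = 0.00175), and its promoter window with a single E-box is shown above. Slc43a2 (ENSMUSG00000038178) encodes LAT4, with a similar choice of substrates. It had 39.0, 57.7, 69.5 and 56.8 CPM in H-TBA and 35.3, 32.4 and 35.2 CPM in L-TBA. H-TBA 1 stood only just above L-TBA, and the other H-TBA libraries stood well above it. This gave a log2 fold change of 0.70 ± 0.16 (adjusted p = 0.00797).

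Slc43a3 (ENSMUSG00000027074) encodes a purine nucleobase carrier that has not been shown to move amino acids. It had 50.3, 58.8, 62.8 and 58.2 CPM in H-TBA and 37.2, 29.8 and 40.4 CPM in L-TBA. The groups did not overlap, and the log2 fold change was 0.69 ± 0.11 (adjusted p = 0.00168). Summed over the family, the level was 92.9, 122, 136 and 119 CPM in H-TBA and 74.2, 63.2 and 76.9 CPM in L-TBA, so the order of the H-TBA libraries in the sum put H-TBA 1 last. The 3 calls of the family held in all 15 alternatives other than the replicate block.

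The sodium-coupled SLC38 carriers Slc38a4 and Slc38a3 held the highest levels per kilobase among the members. Slc38a4 (ENSMUSG00000022464) encodes SNAT4, the system A carrier of hepatocytes and a paternally expressed imprinted gene in mice. It had 1246, 1217, 953 and 1068 CPM in H-TBA and 887, 833 and 970 CPM in L-TBA. Only H-TBA 3 lay within the L-TBA range, and the log2 fold change of 0.32 ± 0.12 did not pass (adjusted p = 0.0741). Slc38a3 (ENSMUSG00000010064) encodes SNAT3, the system N glutamine carrier of the liver. It had 1111, 1224, 1013 and 1071 CPM in H-TBA and 948, 898 and 933 CPM in L-TBA. The groups did not overlap, yet the difference was small at 0.25 ± 0.10 on the log2 scale and did not pass (adjusted p = 0.0936). Slc38a2 (ENSMUSG00000022462), the system A carrier SNAT2 that cells make more of when amino acids are scarce, had 126, 88.4, 83.1 and 101 CPM in H-TBA and 66.8, 84.8 and 81.0 CPM in L-TBA. The groups overlapped at H-TBA 3, and the log2 fold change was 0.36 ± 0.14 (adjusted p = 0.0878), or 0.23 without H-TBA 1.

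These SLC38 genes sat near the threshold, and the setting decided on which side. DESeq2 and limma-voom called Slc38a3 (adjusted p = 0.0317 and 0.0495; the alternatives spanned 0.00533 to 0.238, the replicate block aside) and Slc38a4 (0.0354 and 0.0439; likewise 0.00338 to 0.226). Library totals called both of these and Slc38a2 (adjusted p = 0.013, with alternatives up to 0.29). Without H-TBA 3, Slc38a4 and Slc38a2 passed (adjusted p = 0.0304 and 0.0483). Slc38a1, the system A carrier SNAT1, had 2.06 to 4.53 CPM in H-TBA and 4.31 to 6.51 CPM in L-TBA, at -0.40 ± 0.27 (adjusted p = 0.320). The value was -0.19 without H-TBA 1, its lowest library, and -0.19 without L-TBA 3.

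Slc38a6 (ENSMUSG00000044712), which encodes SNAT6, was the only called member of the family. It had 33.0, 31.6, 30.8 and 34.9 CPM in H-TBA and 40.4, 39.6 and 43.4 CPM in L-TBA. The groups did not overlap, and the log2 fold change was -0.34 ± 0.08 (adjusted p = 0.0113). The Slc38a6 call was lost with library totals (-0.18, adjusted p = 0.148) and without L-TBA 3 (adjusted p = 0.0537). Slc38a9, the lysosomal arginine sensor of the mTORC1 pathway, had 8.41, 6.84, 7.81 and 9.47 CPM in H-TBA and 9.76, 8.17 and 7.91 CPM in L-TBA. These values overlapped (log2 fold change -0.08 ± 0.15, adjusted p = 0.743; 0.02 with L-TBA 1 left out and 0.07 with library totals). Slc38a10 had 125, 128, 111 and 122 CPM in H-TBA and 120, 122 and 108 CPM in L-TBA, which overlapped (0.06 ± 0.08, adjusted p = 0.661). Slc38a7, a lysosomal glutamine carrier, was at 26.0 to 30.3 CPM in H-TBA and 26.5 to 33.3 CPM in L-TBA (-0.10 ± 0.10, adjusted p = 0.503; 0.05 with library totals).

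Levels were compared between members per kilobase of exon. Slc38a4 led with 263 CPM per kilobase in H-TBA and 210 in L-TBA, followed by Slc38a3 with 209 in H-TBA and 176 in L-TBA and by Slc7a2 with 110 in H-TBA. Next in H-TBA was Slc6a13, with 51.1 CPM per kilobase, whereas in L-TBA Slc6a13 (64.7) stood above Slc7a2 (50.7). Of the sum over the 63 members, Slc7a2 made up 13.7 ± 1.12% in H-TBA (SD, n = 4) and 7.64 ± 1.14% in L-TBA (SD, n = 3). Slc6a13 made up 6.39 ± 0.853% in H-TBA and 9.80 ± 0.402% in L-TBA. The share of Slc38a4 was 32.7 ± 1.42% in H-TBA and 31.8 ± 1.42% in L-TBA, and that of Slc38a3 was 26.1 ± 1.14% in H-TBA and 26.6 ± 0.679% in L-TBA, differences smaller than the spread between libraries. The summed CPM of the members was 4562, 4581, 3793 and 4251 in H-TBA and 3285, 3180 and 3463 in L-TBA, with no overlap between the groups. By family, the sum averaged 1067 CPM in H-TBA and 520 CPM in L-TBA for SLC7, of which Slc7a2 held 1009 and 463 CPM. In the same order it averaged 2520 and 2103 CPM for SLC38, 118 and 71.4 for SLC43, and 9.90 and 8.07 for SLC1. It averaged 445 and 447 CPM for SLC6, 89.1 and 101 for SLC3, and 47.6 and 59.1 for SLC36.

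**Figure D3:**
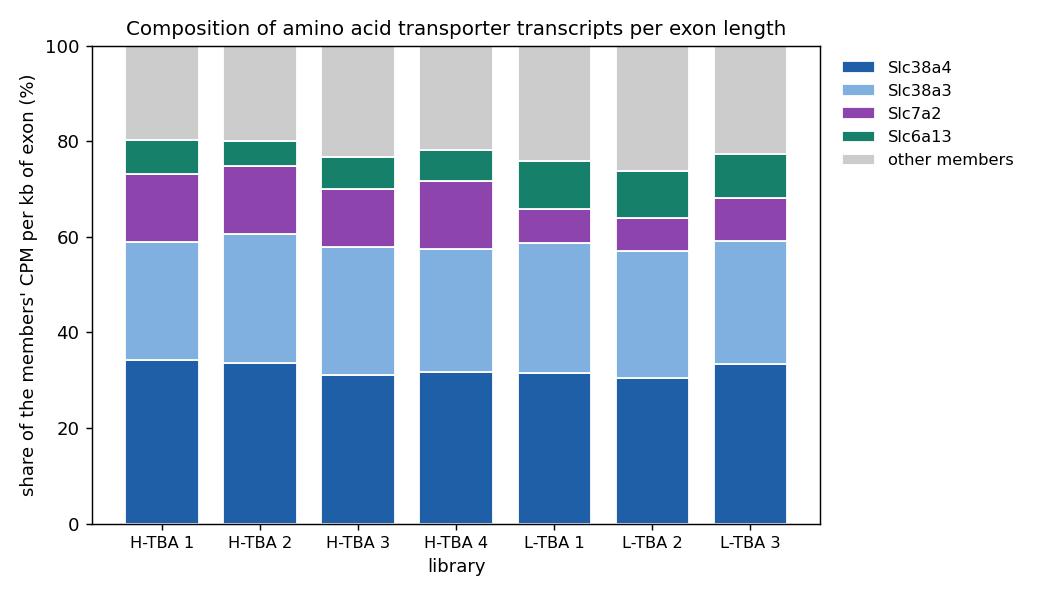
Share of each library's summed amino acid transporter CPM per kilobase of exon (percent, vertical axis) held by Slc38a4, Slc38a3, Slc7a2, Slc6a13 and the other members; H-TBA libraries stand left of L-TBA libraries. The Slc7a2 band averages 13.7% in H-TBA libraries and 7.64% in L-TBA libraries.

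SLC6 carriers of osmolytes and related solutes moved both ways. Slc6a6 (ENSMUSG00000030096) encodes TauT, the sodium- and chloride-coupled taurine carrier. It had 159, 164, 163 and 184 CPM in H-TBA and 125, 129 and 129 CPM in L-TBA. The groups did not overlap, and the log2 fold change was 0.39 ± 0.08, or 1.31-fold (adjusted p = 0.0063). Slc6a13 (ENSMUSG00000030108) encodes GAT2, a hepatocyte carrier of GABA and taurine. It had 177, 128, 142 and 147 CPM in H-TBA and 193, 185 and 185 CPM in L-TBA. All H-TBA libraries lay below L-TBA, H-TBA 1 by the least. The log2 fold change was -0.34 ± 0.11 (adjusted p = 0.0386). The Slc6a13 call was lost without H-TBA 2, 3 or 4 (adjusted p = 0.0974, 0.0814 and 0.0921), without L-TBA 1, 2 or 3 (0.116, 0.0837 and 0.0835) and with library totals (-0.19, adjusted p = 0.168).

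Slc6a8 (ENSMUSG00000019558), the creatine carrier, had 39.5, 35.4, 43.4 and 44.8 CPM in H-TBA and 29.5, 33.9 and 24.5 CPM in L-TBA. The groups were separated by the narrow gap between H-TBA 2 and L-TBA 2. The log2 fold change was 0.48 ± 0.12 (adjusted p = 0.0148), and the call was lost without L-TBA 3 (adjusted p = 0.0644). Slc6a9 (ENSMUSG00000028542) encodes the glycine carrier GlyT1. It had 30.9, 23.7, 24.0 and 26.5 CPM in H-TBA and 47.3, 48.1 and 38.7 CPM in L-TBA. The groups did not overlap, and at -0.77 ± 0.11 (adjusted p = 0.00094) it was the largest fall outside SLC7. Slc6a12 (ENSMUSG00000030109), the betaine and GABA carrier BGT1, had 61.7, 61.9, 47.2 and 56.2 CPM in H-TBA and 54.2, 51.1 and 53.6 CPM in L-TBA. H-TBA libraries lay on either side of L-TBA, and the log2 fold change was 0.10 ± 0.10 (adjusted p = 0.513).

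The proline carrier gene Slc6a7, known from brain, was read at a low level. It had 5.88, 1.27, 1.63 and 2.91 CPM in H-TBA and 0.95, 1.35 and 1.20 CPM in L-TBA. The difference rested mostly on H-TBA 1. The log2 fold change was 1.32 ± 0.51 (adjusted p = 0.0833), 0.75 without H-TBA 1, and past the threshold without H-TBA 2 (adjusted p = 0.0454; the alternatives spanned 0.0411 to 0.212). Slc6a18, a neutral amino acid carrier of the kidney, was at 0.560 to 1.56 CPM in H-TBA and 0.449 to 1.30 CPM in L-TBA and did not pass (0.31 ± 0.48, adjusted p = 0.679). Its log2 fold change was 0.00 without H-TBA 2, 0.04 without L-TBA 2, 0.11 without L-TBA 3 and 0.98 without L-TBA 1.

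The proton-coupled family has 2 tested carriers. Slc36a1 (ENSMUSG00000020261) encodes PAT1, which moves small neutral amino acids out of lysosomes and across brush borders. It had 33.7, 32.5, 29.4 and 30.3 CPM in H-TBA and 44.1, 42.6 and 40.9 CPM in L-TBA. Each group was tight and the groups were well apart, with a log2 fold change of -0.44 ± 0.08 (adjusted p = 0.00312; -0.28 with library totals). Its promoter window, shown above, held a pair of E-boxes. Slc36a4 (ENSMUSG00000043885), a carrier of proline and tryptophan, had 17.1, 13.2, 14.9 and 15.4 CPM in H-TBA and 16.4, 16.2 and 14.6 CPM in L-TBA. The groups overlapped (log2 fold change -0.06 ± 0.11, adjusted p = 0.752; 0.00 without H-TBA 2 and 0.09 with library totals).

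In SLC1, only Slc1a5 (ENSMUSG00000001918), the ASCT2 exchanger of glutamine and other neutral amino acids, could be tested. It had 8.22, 7.82, 8.46 and 7.04 CPM in H-TBA and 5.36, 6.10 and 8.21 CPM in L-TBA. L-TBA 3 lay among the H-TBA libraries, and the log2 fold change was 0.27 ± 0.17 (adjusted p = 0.287), or 0.14 without L-TBA 1 and 0.46 without L-TBA 3. Slc1a1 (ENSMUSG00000024935), the glutamate and cysteine carrier EAAC1, fell short of the filter on low counts, with 8, 11, 8 and 16 counts in H-TBA and 5, 2 and 2 in L-TBA. Each H-TBA library had more than each L-TBA library. The ratio of summed counts after scaling was 3.43 (1.65 to 8.0 by the 95% Clopper-Pearson method, which covers counting error alone), and with no filter the gene passed edgeR (adjusted p = 0.0289).

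**Figure D4:**
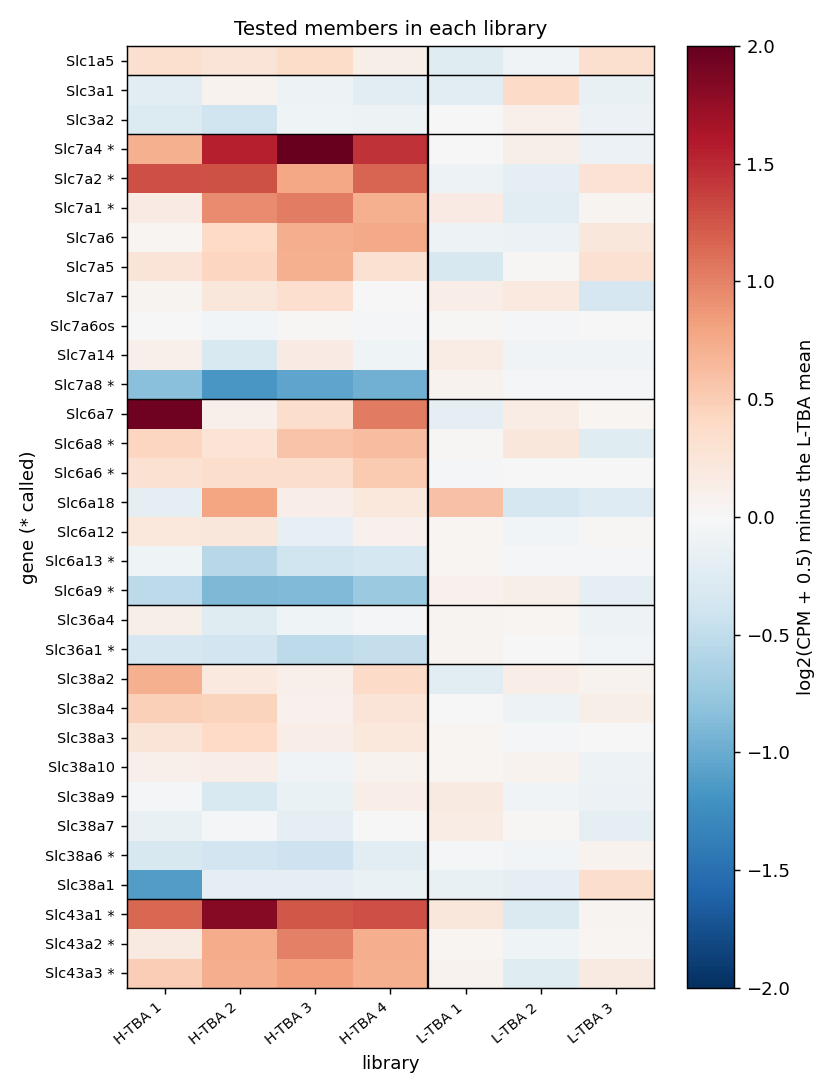
Each tested member (rows, grouped by family, called members starred) in each library (columns, H-TBA left of L-TBA), as log2(CPM + 0.5) minus the L-TBA mean; red is higher and blue lower, with the colours ending at 2 and -2. Slc7a4, Slc7a2 and Slc43a1 are red in all 4 H-TBA libraries (0.72 to 1.99), Slc7a8 is blue in all 4 (-1.17 to -0.84), and H-TBA 1 is the palest H-TBA column for Slc7a1 and Slc43a2.

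H-TBA 1 often lay closest to L-TBA. For 10 of the 13 called members H-TBA 1 was the H-TBA library nearest to the L-TBA mean on the log scale, and H-TBA 2, 3 and 4 were nearest for 1 each. The same count was not made over all called genes. On the first principal component of all tested genes H-TBA 1 (-8.18) was also nearer to L-TBA than H-TBA 2 to 4 (-39.5 to -30.7). H-TBA 1 was likewise the H-TBA library with the lowest summed bile duct markers (952 CPM) and the highest summed pericentral markers (5677 CPM, against at most 4513 CPM in the other 3). For Slc7a2, H-TBA 1 held the highest value and H-TBA 3 the lowest. The summed periportal markers had the same highest and lowest H-TBA library as Slc7a2, at 8965 CPM in H-TBA 1 and 6567 CPM in H-TBA 3. Their sum was 2963 to 4450 CPM in L-TBA. This order was not particular to periportal markers. The summed pericentral markers (5677 CPM in H-TBA 1, 3253 CPM in H-TBA 3) and hepatocyte markers (55904 and 49358 CPM) had it too.

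The other 31 members were not tested, 7 of them without a count in any library: Slc38a5, Slc6a3, Slc6a11, Slc6a14, Slc6a15, Slc6a19os and Slc7a12. A count of 0 over the 7 libraries allows up to 0.0383 CPM (3 counts, for counting error only). The other 24 had from 1 to 66 counts over all libraries and at most 1.55 CPM in any library. Apart from Slc1a1, 1 of these passed edgeR when no filter was set. This was Slc6a20a, a proline carrier, with 1, 8, 5 and 5 counts in H-TBA and 0, 0 and 1 in L-TBA (adjusted p = 0.0393). The ratio after scaling was 13.6 (95% Clopper-Pearson interval 2.17 to 566). Slc6a20b, on the same chromosome, had 11 counts in H-TBA and 8 in L-TBA. Sequence identity between Slc6a20a and Slc6a20b was not measured, and where they are alike the counting could split reads between them.

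Of the members 4 carry the ending os for a gene on the opposite strand of a transporter gene and are not themselves carriers. Slc7a6os, the only tested member among these, was at 19.4 to 20.5 CPM in H-TBA and 19.7 to 20.5 CPM in L-TBA (log2 fold change -0.01 ± 0.09, adjusted p = 0.933; 0.14 with library totals and 0.00 without H-TBA 2). Its log2 fold change was the nearest to 0 among the tested members. The strand setting of the counting is not given in the sources used here, so reads of Slc7a6os and Slc7a6, or of Slc36a1os and Slc36a1, cannot be told apart where these genes overlap.

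Genes of amino acid transport and sensing outside the 7 families were read in 3 lists. Of 8 tested mitochondrial amino acid carriers 2 were higher and 0 lower (25.0% called, near the 23.9% of all tested genes), with a median log2 fold change of 0.13. The 2 were the ornithine carrier Slc25a15, at 412 CPM in H-TBA and 236 CPM in L-TBA on average (0.80 ± 0.13, adjusted p = 0.00156), and the glutamate carrier Slc25a22, at 288 CPM in H-TBA and 174 CPM in L-TBA (0.73 ± 0.10, adjusted p = 0.000604). Without H-TBA 1, 2 carriers of this list were lower, and 1 without L-TBA 2. Of 8 other plasma membrane and lysosomal carriers of amino acids and peptides, Slc15a3, a lysosomal histidine and peptide carrier of immune cells, was lower (12.7 CPM in H-TBA and 26.3 CPM in L-TBA, -1.05 ± 0.14, adjusted p = 0.000644), and 0 were higher, or 1 without H-TBA 3. The called share of this list was 12.5%, below the 23.9% of all tested genes.

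Of 27 tested genes of amino acid sensing 2 were higher and 4 lower, with a median log2 fold change of -0.08. The called share of 22.2% was no higher than the 23.9% of all tested genes. Rragd, a Rag GTPase that recruits mTORC1 to lysosomes, was higher at 70.6 CPM in H-TBA and 30.9 CPM in L-TBA (1.19 ± 0.16, adjusted p = 0.00064). Fnip2, a partner of folliculin in the same pathway, was lower at 30.6 CPM in H-TBA and 54.0 CPM in L-TBA (-0.82 ± 0.13, adjusted p = 0.00124), as was Mtor itself at 54.8 CPM in H-TBA and 69.2 CPM in L-TBA (-0.34 ± 0.07, adjusted p = 0.00585), a call lost with library totals (-0.18, adjusted p = 0.0964). In this list 7 genes were lower with H-TBA 1 left out. A single gene was higher when H-TBA 2, H-TBA 3, H-TBA 4, L-TBA 1 or L-TBA 2 was left out.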

How the data were processed

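Liver RNA of 4 H-TBA and 3 L-TBA libraries was analysed, grouped and numbered by the titles. The deposited table holds unnormalized read counts for each Ensembl gene, as the authors made them. CASAVA, TopHat2 2.0.11, DESeq2 1.18.1 and the build mm9 appear in the submitters' processing notes, which state no role for them. How reads were counted, and with which strand setting, is not given in the sources used here. Symbols were found for 32897 identifiers, and exon lengths came from GENCODE M21 models of another build. The only coordinates given are those of RefSeq promoter windows on GRCm38.p6.

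Genes were kept with filterByExpr of edgeR 4.0.16 (minimum count 10, total 15), scaled by TMM and tested across all genes by glmQLFTest (R 4.3.3, a model of group alone), with Benjamini-Hochberg adjustment and SE from the fold change and F. The fit was checked on simulated counts. No library was a repeat of another in its group (smallest chi-square per degree of freedom 4.36). The alternatives were DESeq2 1.42.0, limma-voom (limma 3.58.1), other scalings, filters, a robust fit, an exon length offset, the replicate block and leaving out each library. Counts of the other lists without each library, and the median over the members in each alternative, were added after seeing the data.

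Members and lists were chosen with earlier results of these data known. Described with every value were up to 3 called members per family with the smallest adjusted p and 24 carriers whatever their result. Of the other lists, up to 3 called genes each are named. Slc6a7, Slc6a20a and the ranges of other members were added after their values were seen.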

Additional observations from a re-analysis of the deposited data

Results flagged for a closer look

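For each of the 32 tested members, the 4 H-TBA libraries were searched for a library far from the rest by the Dixon criterion, which flags about 1 in 20 groups by chance. Slc38a1, the system A carrier SNAT1, was the only member picked out. H-TBA 1 had 2.06 CPM, whereas H-TBA 2 to 4 had 4.39 to 4.53 CPM and L-TBA 4.31 to 6.51 CPM.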

How the results depend on the processing

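The counts of 8 higher and 5 lower members stayed within 1.5 times under the alternatives run, except as follows. Library totals gave 3 lower members, and the replicate block 5 higher members. Leaving out 1 library gave 3 to 5 lower members. Over all genes, library totals gave 3113 higher and 832 lower genes, the replicate block 1166 and 754, and leaving out 1 library 1035 to 2123 lower genes. Of the 13 called members 9 were called in all 15 alternatives other than the block, and no called member changed sign. With library totals the log2 fold change turned for Slc3a1 (0.011), Slc36a4 (0.094), Slc38a7 (0.053), Slc38a9 (0.073), Slc7a14 (0.133), Slc7a6os (0.143) and the SLC38 median (0.142), none past the threshold. Leaving out 1 library turned Slc3a1, Slc36a4, Slc38a9, Slc7a14, Slc7a6os, Slc7a7 and the SLC38 median, whose ranges were -0.258 to 0.073, -0.120 to 0.000304, -0.164 to 0.016, -0.104 to 0.071, -0.033 to 0.000138, -0.016 to 0.245 and -0.068 to 0.045. The cause was not tested. Replicate numbers gave no sign of pairing, since the deviations of same-numbered libraries correlated at -0.103, -0.0589 and -0.0627, and with the block Slc6a6, Slc6a8, Slc6a13 and Slc7a1 lost their calls. Depth limits the 31 members not tested.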
